A study of Mus musculus with 14 samples.

Results

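Spi1, Cebpa, Cebpb, Cebpd, Cebpe, Irf8, Gfi1 and Klf4 encode transcription factors that direct blood progenitors into the myeloid lineages, and their RNA is described here in all 14 libraries of the series. They were taken by symbol, as factors known for this role. They are 8 of the 52636 gene identifiers in the count table and 8 of the 11994 genes with enough counts to be tested. The libraries hold leukemic progenitors of mice transplanted with I1DN cells, a mouse acute myeloid leukemia with mutant IDH1. The labels do not spell out which alleles I1DN stands for, and the cells of every group carry them. Cells with cKit and without CD11b on their surface were sorted from each mouse, so that each library was taken as 1 mouse. Strain, sex and age are not given in the labels. The gate in the labels names no marker of the transplanted cells, so host progenitors that fall in it are not set apart. The groups were AG120 for 5 days (n = 3), AG120 for 14 days (n = 2), disease that relapsed after 28 days of AG120 (n = 4), vehicle for 5 days (n = 3) and vehicle for 14 days (n = 2). AG120, also known as ivosidenib, inhibits mutant IDH1, an enzyme form that makes 2-hydroxyglutarate. The comparisons ask how the inhibitor moved these genes at each time and where relapsed disease stood.

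PU.1, the product of Spi1, and C/EBPα are needed early, when a multipotent progenitor gives rise to granulocyte and monocyte progenitors. PU.1 and GATA1, a factor of the erythroid lineage, bind each other and oppose each other's targets. Further along, IRF8 and KLF4 favour monocytes and dendritic cells, GFI1 is a repressor needed for neutrophils, C/EBPε drives the late steps of granulocyte maturation, and C/EBPβ and C/EBPδ respond to cytokines and infection. Loss of C/EBPα or PU.1 function is a known route to myeloid leukemia.

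RefSeq promoter windows of the GRCm38.p6 assembly, each 300 bases long with 250 before and 50 after the annotated start, were found for 5 of the 8 genes (Cebpa, Cebpb, Irf8, Gfi1 and Klf4), in 7 windows. Spi1, Cebpd and Cebpe are named only. The windows of Cebpa (chr7:35119043-35119342, + strand), Irf8 (chr8:120736108-120736407, + strand) and Gfi1 (chr5:107725756-107726055, - strand) are shown, since RNA of the first 2 changed most clearly with AG120 among the genes with a window and the third held the only match to a C/EBP site. Capitals mark each match, on either strand, to the letters searched.
Cebpa: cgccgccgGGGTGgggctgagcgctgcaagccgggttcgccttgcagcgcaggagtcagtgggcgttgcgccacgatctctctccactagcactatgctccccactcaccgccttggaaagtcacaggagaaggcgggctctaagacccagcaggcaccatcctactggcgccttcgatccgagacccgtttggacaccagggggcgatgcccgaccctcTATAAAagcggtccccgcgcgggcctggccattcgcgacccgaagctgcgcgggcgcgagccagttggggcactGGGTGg
Irf8: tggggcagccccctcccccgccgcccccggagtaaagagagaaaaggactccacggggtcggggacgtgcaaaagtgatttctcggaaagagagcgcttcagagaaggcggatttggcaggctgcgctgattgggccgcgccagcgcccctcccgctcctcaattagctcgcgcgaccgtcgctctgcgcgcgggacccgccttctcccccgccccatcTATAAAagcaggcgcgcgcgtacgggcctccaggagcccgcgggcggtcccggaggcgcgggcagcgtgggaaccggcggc
Gfi1: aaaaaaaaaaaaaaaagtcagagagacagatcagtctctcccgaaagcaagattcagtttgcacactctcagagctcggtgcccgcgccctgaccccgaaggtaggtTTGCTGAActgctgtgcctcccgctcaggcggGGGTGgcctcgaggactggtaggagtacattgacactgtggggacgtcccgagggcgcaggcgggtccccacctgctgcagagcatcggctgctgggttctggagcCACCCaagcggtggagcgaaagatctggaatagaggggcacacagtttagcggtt
TATAAA, the core of a TATA box, was added to the search after the sequences were seen. Its first base was at -30 from the start in Cebpa, at -31 in Irf8 and at 22, past the start, in Cebpb. These 3 of the 7 windows held it, against 13.6% of all 32851 windows of the same length. Since the letters were picked after these windows were seen, this is not a test of an excess. The C/EBP letters TTGCNNAA lay at -143 from the start of Gfi1, in 1 of the 7 windows and in 10.8% of all windows. CACCC (shown as GGGTG where it lies on the other strand), which KLF and SP factors bind, was in 3 of the 7 windows and in 57.5% of all. GAGGAA, read by ETS factors such as PU.1, AGATAA, read by GATA factors, and a pair of GAAA with any 2 bases between, read by IRF factors, were in 0 of the 7 windows and in 28.3%, 11.2% and 3.44% of all windows. Both strands were searched, and none of these motifs contains another. The GC content was 67.3% for Cebpa, 70% for this Irf8 window and 58% for this Gfi1 window, against a median of 52.7% over all windows.

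Total counts were 4995738 to 8691708 per library, of which ribosomal RNA gene models took 50.9% to 74.8%, so 1259982 to 3358874 counts remained for all other genes. Levels are given in CPM, read counts scaled to a common library size by TMM. A floor of 3 counts, the most that a library with 0 counts is taken to allow, amounted to 0.330 to 0.895 CPM, for counting error only. The relapse libraries differed more among themselves than those of other groups: between pairs of them the chi-square per degree of freedom over genes was 3.95 to 17.6, against 1.87 to 4.14 in the 8 pairs within the other groups. Replicates 1 and 4 were near each other, as were replicates 2 and 3 to a lesser degree. The RNA of the sort markers differed between libraries too. Kit had 23.6 to 33.1 CPM after 5 days of AG120 and 11.6 CPM in both libraries of 14 days, 18.9 to 52.0 CPM in relapse, and 33.5 to 37.8 CPM over the 5 vehicle libraries. Itgam, the gene of CD11b, had 2.56 to 3.81 CPM after 5 days of AG120 and 5.97 to 8.01 CPM after 14 days, 13.9 to 53.5 CPM in relapse, and 10.6 to 18.0 CPM over the 5 vehicle libraries, although CD11b-positive cells were sorted out. The part of the sort markers in the results below was not tested. In RNA of sorted pools, fewer cells of a kind and less RNA per cell cannot be told apart.

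After 5 days of AG120, 5 of the 8 genes passed the threshold (adjusted p of at most 0.05 by edgeR's quasi-likelihood test over all genes tested). Spi1, Cebpa, Irf8 and Cebpd fell and Klf4 rose, while Cebpb, Cebpe and Gfi1 did not pass. Of all genes tested, 39.4% passed at day 5, 20.1% higher and 19.3% lower. After 14 days 2 of the 8, Spi1 and Cebpa, passed, both lower, against a background of 34.7% (16.8% higher and 17.9% lower). The median log2 fold change of the 8 was -1.10 at day 5 and -1.21 at day 14, beside medians of -0.00087 and -0.0062 over all genes. At day 5 the AG120 and vehicle libraries did not overlap for 4 of the 8 genes, and 59.9% of all genes did not overlap; at day 14, with 2 libraries a group, it was 8 of 8 and 70.5%. The count at day 14 depends on how the spread was estimated: when the fit held only the 4 libraries compared, 7 of the 8 passed, all but Klf4, which was not tested there. The 34.7% is not the background of that fit, whose share over all genes is not given here. At day 5 the same setting called 6186 genes, beside 4730 in the fit of all libraries. The 7 of 8 is thus not read as a result about these genes.

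**Figure D1:**
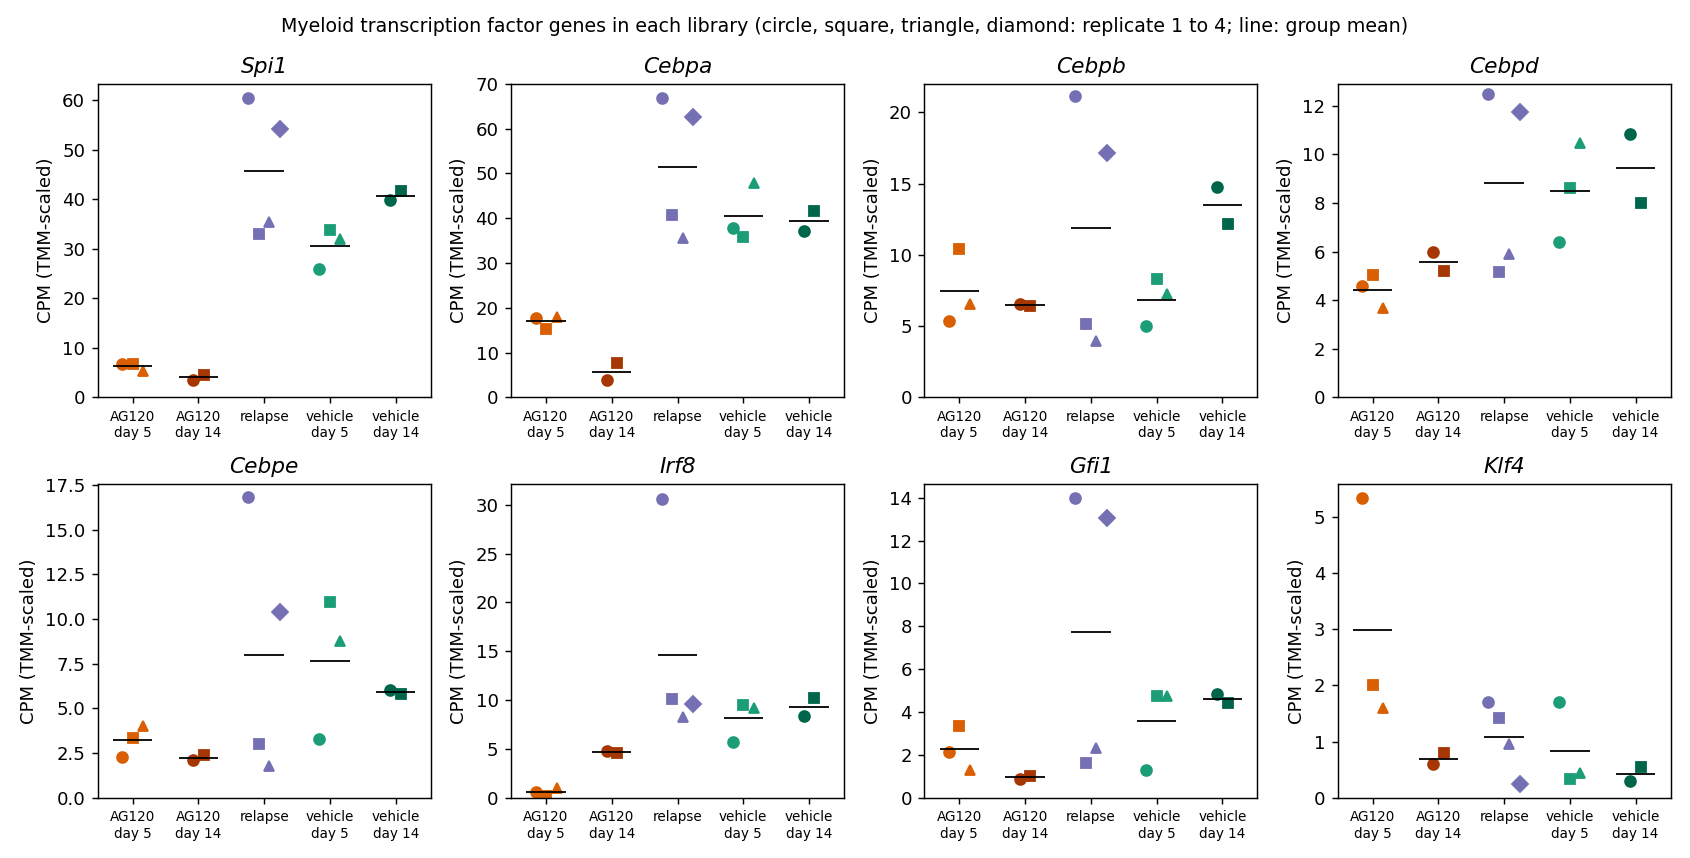
Level of each of the 8 genes in CPM (vertical axes, each from 0) in every library of the 5 groups, with a line at the group mean and a marker for each replicate number. Spi1 and Cebpa are lower in all AG120 libraries than in all others, and relapse replicates 1 and 4 stand above relapse replicates 2 and 3 for 6 of the 8 genes.

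Spi1 (chromosome 2, 91082390 to 91115756, + strand, GRCm38) encodes PU.1. Its level was 6.70, 6.72 and 5.27 CPM in AG120 day 5 and 3.58 and 4.60 CPM in AG120 day 14, 60.5, 33.0, 35.4 and 54.2 CPM in relapse, and 25.9, 33.8 and 32.0 CPM in vehicle day 5 and 39.8 and 41.6 CPM in vehicle day 14. All 5 AG120 libraries were below all 9 others, and relapse overlapped vehicle. Spi1 was 4.91-fold lower than vehicle at day 5 (log2 fold change -2.29 ± 0.23 SE, edgeR adjusted p = 1.22e-06) and 9.74-fold lower at day 14 (log2 fold change -3.28 ± 0.32 SE, edgeR adjusted p = 9.55e-07). The day 14 effect minus the day 5 effect was -0.99 ± 0.41 on the log2 scale, which did not pass (edgeR adjusted p = 0.330). In relapse Spi1 was 8.94-fold higher than in the AG120 groups (log2 fold change 3.16 ± 0.20 SE, edgeR adjusted p = 2.18e-09).

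Cebpa (chromosome 7, 35119293 to 35121928, + strand) encodes C/EBPα. It stood at 17.8, 15.3 and 18.0 CPM in AG120 day 5 and 3.88 and 7.61 CPM in AG120 day 14, 66.9, 40.6, 35.5 and 62.7 CPM in relapse, and 37.7, 35.7 and 47.8 CPM in vehicle day 5 and 37.2 and 41.6 CPM in vehicle day 14. The AG120 day 14 libraries were lowest, the AG120 day 5 libraries came next without overlap, and relapse again overlapped vehicle. The fall was 2.37-fold at day 5 (log2 fold change -1.24 ± 0.24 SE, edgeR adjusted p = 0.0007) and 6.57-fold at day 14 (log2 fold change -2.72 ± 0.34 SE, edgeR adjusted p = 2.28e-05). Leaving out 1 of the 4 day 14 libraries gave day 14 values of -3.34 to -2.37, with -3.34 without AG120 day 14 replicate 2. The AG120 day 14 group then held only replicate 1, the shallowest of the 14 libraries, with 1259982 counts outside ribosomal RNA and 13 of Cebpa. None of the 8 genes passed in the difference between the 2 effects, where 0.934% of all genes did, and that difference was -1.47 ± 0.42 for Cebpa (edgeR adjusted p = 0.136). It did pass for Cebpa in DESeq2 (adjusted p = 0.0440) and when genes with low counts were not filtered out (edgeR adjusted p = 6.33e-05). AG120 day 14 set directly against AG120 day 5, a comparison added after the data were seen, called 1 of the 8 against a background of 4.1%, and that gene was Cebpa (log2 fold change -1.51 ± 0.34 SE, edgeR adjusted p = 0.0184). Cebpa shares 51 exon bases with Gm45091 on the opposite strand, which had 4 counts in all libraries together.

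**Figure D2:**
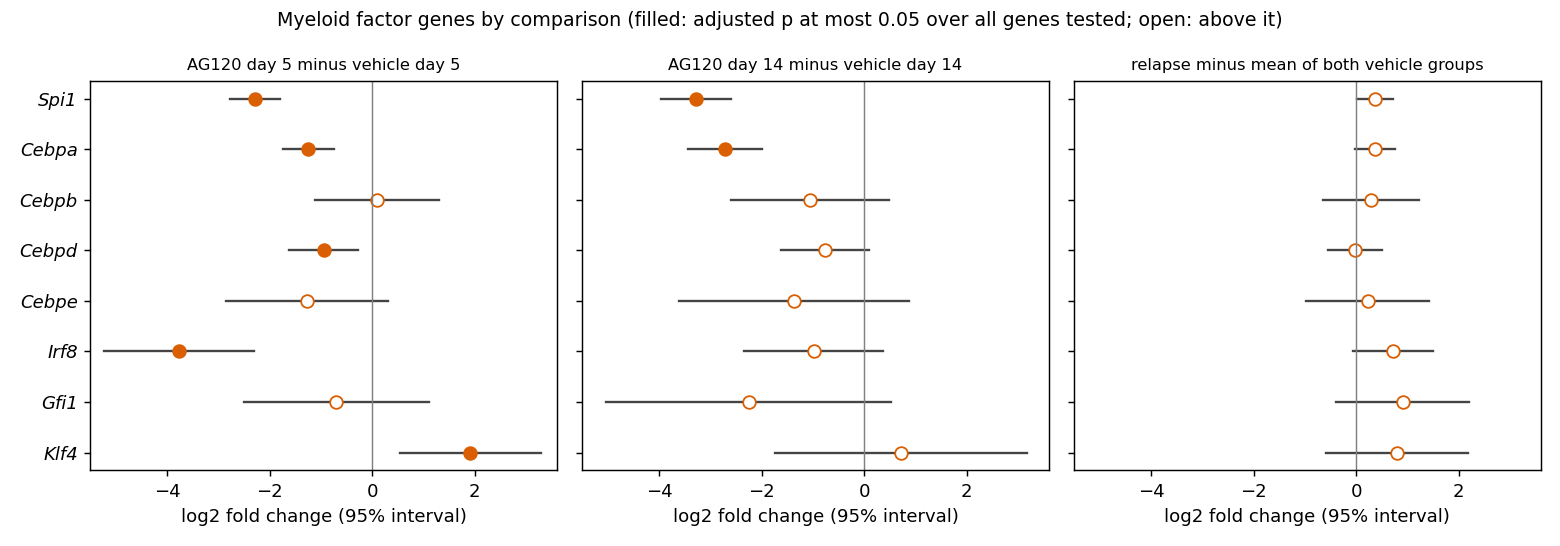
Log2 fold change (horizontal axis) of each gene with its 95% interval in 3 comparisons, AG120 against vehicle at day 5, the same at day 14, and relapse against both vehicle groups. Filled points, adjusted p of at most 0.05, are 5 at day 5, 2 at day 14 and 0 in relapse.

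Irf8 (chromosome 8, 120736358 to 120756694, + strand) encodes a factor of monocytes and dendritic cells. At AG120 day 5 it was close to the detection limit, with 4, 1 and 6 counts, or 0.609, 0.168 and 0.958 CPM. It stood at 4.78 and 4.60 CPM in AG120 day 14, at 30.6, 10.2, 8.25 and 9.59 CPM in relapse, at 5.70, 9.50 and 9.24 CPM in vehicle day 5 and at 8.35 and 10.2 CPM in vehicle day 14. The AG120 day 14 libraries thus lay above those of AG120 day 5 and below all vehicle libraries. Irf8 fell at day 5 (log2 fold change -3.77 ± 0.68 SE, edgeR adjusted p = 0.000731; -4.66 in libraries thinned to equal depth), and the value at day 14 was -0.99 ± 0.63 (edgeR adjusted p = 0.247). The difference between the 2 effects was 2.78 ± 0.98, which did not pass by edgeR (adjusted p = 0.244) but did by DESeq2 (adjusted p = 0.0462). AG120 day 14 minus AG120 day 5 was 2.96 ± 0.83 (edgeR adjusted p = 0.0679). Relapse was 8.56-fold higher than the mean of both AG120 groups on the log2 scale (log2 fold change 3.10 ± 0.47 SE, edgeR adjusted p = 0.000111). Without relapse replicate 1 this log2 fold change was 2.47 and still passed. The AG120 mean takes in the day 5 libraries near the detection limit, which averaged 0.579 CPM against 4.69 CPM at day 14. Relapse against AG120 day 14 alone was not tested.

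Klf4 (chromosome 4, 55527143 to 55532466, - strand), which promotes monocyte differentiation, was the only one of the 8 that rose. Its counts were few: 35, 12 and 10 in AG120 day 5, against 12, 3 and 4 in vehicle day 5. In CPM these were 5.33, 2.02 and 1.6 in AG120 day 5 and 1.71, 0.332 and 0.440 in vehicle day 5, so the groups overlapped, and the rise was 3.77-fold (log2 fold change 1.92 ± 0.65 SE, edgeR adjusted p = 0.0277). Without AG120 day 5 replicate 1 the log2 fold change was 1.18 and did not pass (edgeR adjusted p = 0.227), nor did it pass when replicate 2 (0.118) or 3 (0.111) of vehicle day 5 was left out. Without vehicle day 5 replicate 1 it was 2.90. Klf4 was at 0.597 and 0.801 CPM in AG120 day 14, 1.70, 1.43, 0.963 and 0.240 CPM in relapse, and 0.293 and 0.553 CPM in vehicle day 14. Only AG120 day 5 replicate 1 exceeded 2.02 CPM, and no Klf4 difference passed in any other comparison.

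Gfi1 (chromosome 5, 107716657 to 107726036, - strand), whose promoter is shown above, encodes a repressor that neutrophil development needs and that opposes PU.1. It had 2.13, 3.36 and 1.28 CPM in AG120 day 5 and 0.895 and 1.00 CPM in AG120 day 14, which are 3 and 5 counts. It had 14.0, 1.6, 2.34 and 13.1 CPM in relapse, 1.28, 4.75 and 4.73 CPM in vehicle day 5 and 4.83 and 4.42 CPM in vehicle day 14. The day 14 libraries of AG120 were the lowest and relapse replicates 1 and 4 the highest. Neither difference from vehicle passed, with log2 fold changes of -0.70 ± 0.82 at day 5 (edgeR adjusted p = 0.535) and -2.25 ± 1.27 at day 14 (edgeR adjusted p = 0.196), and the interval at day 14 ran from -5.03 to 0.53. Gfi1 shares 101 exon bases with A430072P03Rik on the opposite strand, which had 47 counts in all.

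Of the other C/EBP genes, 1 passed at day 5 and none at day 14. Cebpd (chromosome 16, 15887286 to 15891031, + strand) was at 4.57, 5.04 and 3.67 CPM in AG120 day 5 and 5.97 and 5.20 CPM in AG120 day 14, at 12.5, 5.17, 5.92 and 11.7 CPM in relapse, and at 6.41, 8.62 and 10.4 CPM in vehicle day 5 and 10.8 and 8.02 CPM in vehicle day 14. AG120 and vehicle did not overlap at either time. The fall at day 5 passed (log2 fold change -0.95 ± 0.32 SE, edgeR adjusted p = 0.0269), and the day 14 value did not (-0.76 ± 0.40, edgeR adjusted p = 0.159). The day 5 call was lost without AG120 day 5 replicate 1 (edgeR adjusted p = 0.0667) or 3 (0.102), and on leaving out replicate 2 (0.0627) or 3 (0.109) of vehicle day 5.

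Cebpb (chromosome 2, 167688915 to 167690418, + strand) was at 5.33, 10.4 and 6.55 CPM in AG120 day 5 and 6.57 and 6.40 CPM in AG120 day 14, at 21.2, 5.17, 3.99 and 17.1 CPM in relapse, and at 4.98, 8.29 and 7.26 CPM in vehicle day 5 and 14.8 and 12.2 CPM in vehicle day 14. At day 5 AG120 and vehicle overlapped, with a log2 fold change of 0.10 ± 0.55 (edgeR adjusted p = 0.906). At day 14 they did not overlap, with a log2 fold change of -1.05 ± 0.70 (edgeR adjusted p = 0.273); vehicle day 14 stood above vehicle day 5 in every library, while the AG120 groups overlapped. Vehicle day 14 minus vehicle day 5 was 0.96 ± 0.58 for Cebpb (edgeR adjusted p of 1), and 0 of the 8 passed in that comparison, as did 0% of all genes, and the vehicle times did not overlap for 2 of the 8 (Cebpb and Spi1), against 31.3% of all genes. At an unadjusted p under 0.05, 574 genes (4.79%) differed between the vehicle times, and DESeq2 called 0. In a fit of the vehicle libraries alone Cebpb passed (edgeR adjusted p = 0.0039), as did 236 genes. Cebpe (chromosome 14, 54710360 to 54712174, - strand) was at 2.29, 3.36 and 3.99 CPM in AG120 day 5 and 2.09 and 2.40 CPM in AG120 day 14, at 16.8, 3.03, 1.79 and 10.4 CPM in relapse, and at 3.27, 10.9 and 8.80 CPM in vehicle day 5 and 6.01 and 5.80 CPM in vehicle day 14. Vehicle day 5 replicate 1 was within the AG120 range for Cebpe, and the log2 fold changes were -1.27 ± 0.72 at day 5 (edgeR adjusted p = 0.181) and -1.37 ± 1.02 at day 14 (edgeR adjusted p = 0.329). Exons of Cebpb and Cebpd share 312 and 562 bases with Tmem189 and Spidr on the opposite strand (654 and 668 counts in all), and whether reads were counted by strand is not given in the sources used here, so part of their counts may belong to those neighbours.

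As a family, the C/EBP genes changed in make-up. In the summed counts of Cebpa, Cebpb, Cebpd, Cebpe and Cebpg, Cebpa took 24.5% to 33.9% after 5 days of AG120 and 9.35% to 15.7% after 14 days, 47.5% to 51.8% in relapse, 39.1% to 48.0% in vehicle day 5 and 37.9% to 45.3% in vehicle day 14. Cebpg, whose product lacks an activation domain and pairs with the others, took 42.9% to 45.4% after 5 days of AG120, 55.4% in both AG120 day 14 libraries, 15.7% to 32.7% in relapse, 26.6% to 33.3% in vehicle day 5 and 26.5% to 30.0% in vehicle day 14. The CPM of Cebpg itself averaged 25.5 ± 2.92 after 5 days of AG120 against 27.0 ± 0.827 after 5 days of vehicle (SD, n = 3 each), and 24.9 ± 2.71 against 26.9 ± 3.62 after 14 days of each (SD, n = 2 each), with no call at either time (edgeR adjusted p = 0.669 and 0.688). The Cebpa share was thus lower in each AG120 library than in each vehicle library, beside overlapping Cebpg levels in AG120 and vehicle.

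**Figure D3:**
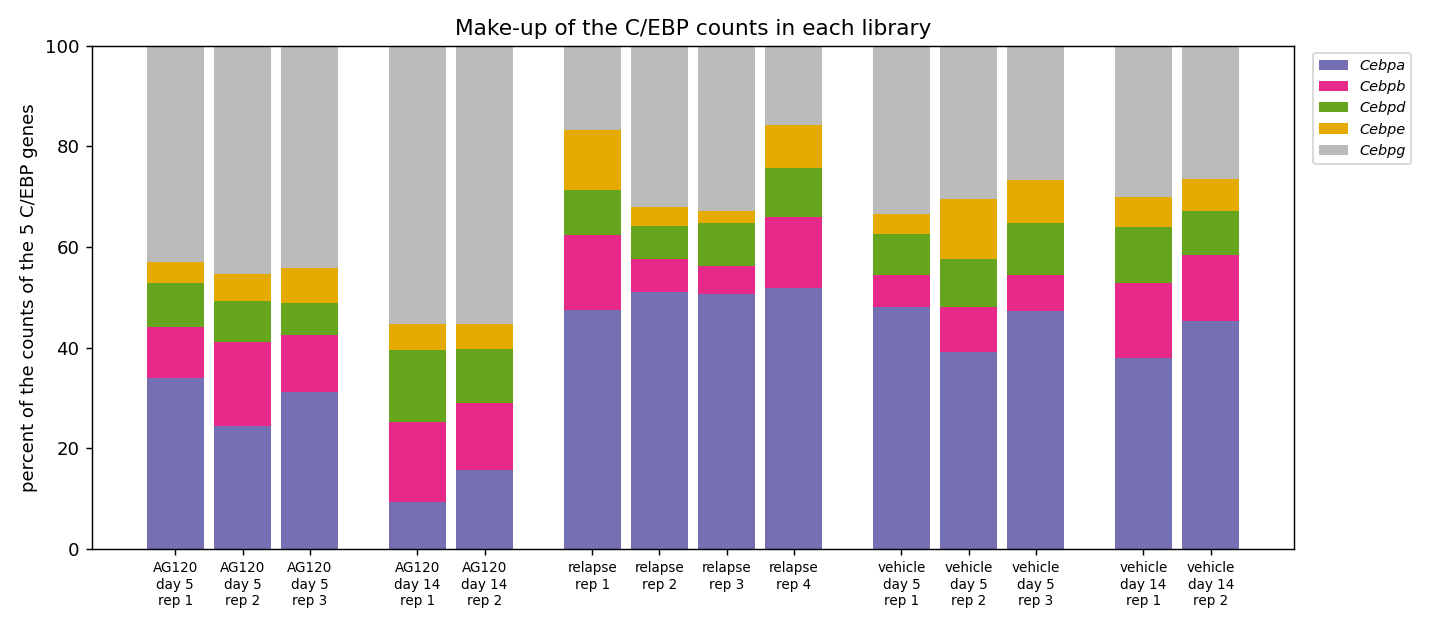
Share (vertical axis, percent) of each of 5 C/EBP genes in their summed counts, 1 bar per library. The Cebpa share lies between 9.35% and 33.9% in the 5 AG120 libraries, between 47.5% and 51.8% in relapse and between 37.9% and 48.0% in the 5 vehicle libraries.

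Pairs of factors with opposed roles were set against each other within each library. The ratio of Spi1 to Gata1 counts was 0.196, 0.214 and 0.145 in AG120 day 5, 0.0992 and 0.0916 in AG120 day 14, 2.64, 3.78 and 3.88 in vehicle day 5, and 3.94 and 4.30 in vehicle day 14. Every AG120 library had more Gata1 than Spi1 counts and every vehicle library the reverse. In relapse the ratio was 14.2, 6.27 and 30.1 in replicates 2 to 4, and in replicate 1, with 320 Spi1 counts and 0 Gata1 counts, it was at least 107 when Gata1 is set at the limit of 3 counts. All 4 relapse libraries were thus above all vehicle libraries in this ratio. Gata1 was at 0, 2.32, 5.64 and 1.80 CPM in relapse against 8.25 to 10.1 CPM over the 5 vehicle libraries, a difference that did not pass (log2 fold change -1.87 ± 0.44 SE, edgeR adjusted p = 0.117), while Spi1 overlapped between relapse and vehicle. Gata1, the erythroid factor, rose with AG120 (log2 fold change 1.92 ± 0.41 SE at day 5, edgeR adjusted p = 0.00296; 2.13 ± 0.51 SE at day 14, edgeR adjusted p = 0.00659). Irf8 over Gfi1, factors of the monocyte and the neutrophil choice, was 0.286, 0.05 and 0.75 in AG120 day 5, 5.33 and 4.60 in AG120 day 14, 2.19, 6.33, 3.53 and 0.734 in relapse, 4.44, 2.0 and 1.95 in vehicle day 5, and 1.73 and 2.31 in vehicle day 14. The ratio was below 1 in each AG120 day 5 library and above every vehicle value in each AG120 day 14 library, but it rests there on 1 to 23 counts of either gene. A further pair, Cebpa over Gata2, did not separate AG120 from vehicle. It was 0.563 to 0.592 in AG120 day 5 and 0.224 and 0.717 in AG120 day 14. Vehicle stood at 0.472 to 0.771 at day 5 and at 0.483 and 0.591 at day 14. In relapse it was 2.74, 0.516, 0.533 and 1.87.

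**Figure D4:**
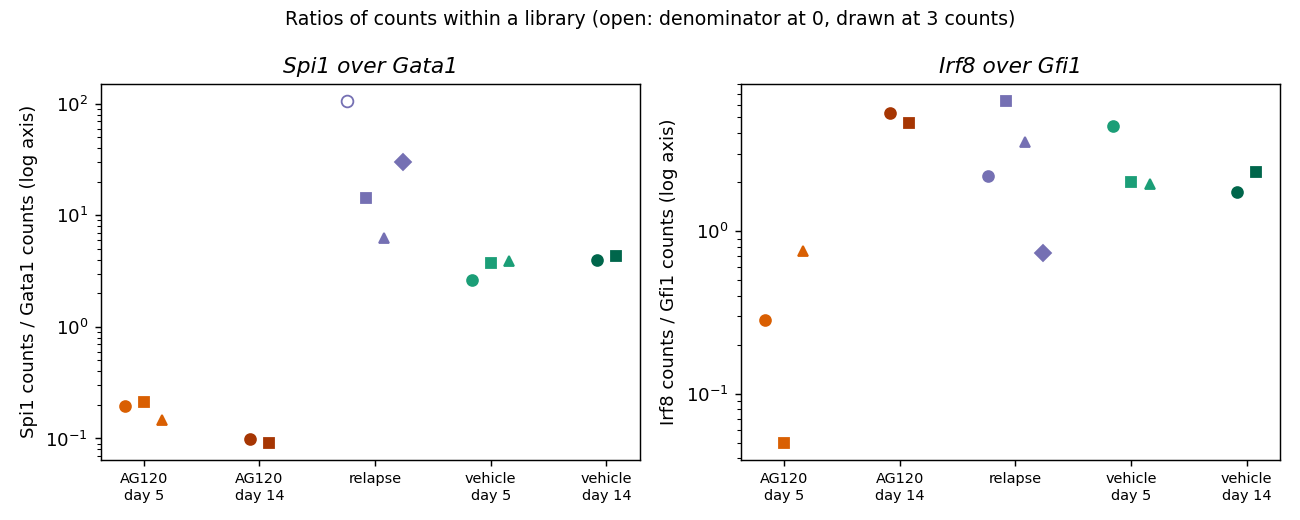
Ratio of the counts of Spi1 to Gata1 and of Irf8 to Gfi1 in each library (vertical log axes); the open point is relapse replicate 1, drawn with Gata1 at 3 counts. Spi1 over Gata1 is 0.0916 to 0.214 in the AG120 libraries and 2.64 to 4.30 in the vehicle libraries.

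In relapsed disease none of the 8 genes passed against vehicle, where 0.183% of all genes passed (22 genes by edgeR, 1389 or 11.6% at an unadjusted p under 0.05, 120 by DESeq2, which called none of the 8 either). The difference was 0.37 for Spi1 (95% interval 0.027 to 0.72, edgeR adjusted p = 0.394), 0.36 for Cebpa (-0.027 to 0.76, edgeR adjusted p = 0.468), 0.72 for Irf8 (edgeR adjusted p = 0.473) and 0.91 for Gfi1 (edgeR adjusted p = 0.592) on the log2 scale. Klf4 was at 0.80 (edgeR adjusted p = 0.681), Cebpb at 0.29 (0.837), Cebpe at 0.23 (0.915) and Cebpd at -0.021 (0.986). The median of the 8 was 0.37, beside 0.018 over all genes. For 0 of the 8 did the groups not overlap, and 3.95% of all genes did not overlap. Leaving out any 1 library left 0 of the 8 called. Both vehicle groups were taken at earlier times than relapse, so relapse and elapsed time cannot be told apart here. Spi1 and Cebpb did not overlap between the vehicle times, although neither difference passed.

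The relapse libraries themselves were far apart for these genes. Replicates 1 and 4 were above the range of the 5 vehicle libraries for Spi1, Cebpa, Cebpb, Cebpd and Gfi1, and replicate 1 also for Cebpe and Irf8. Replicates 2 and 3 were above it for 0 of the 8 genes, and below it in both libraries for Cebpd and Cebpe. The highest relapse library exceeded the lowest 9.40-fold for Cebpe, 8.72-fold for Gfi1 and 5.30-fold for Cebpb, but 1.83-fold for Spi1 and 1.88-fold for Cebpa. The SD of log2 CPM among relapse libraries was larger than that of 98.7% of tested genes for Gfi1, 98.2% for Cebpe and 96.6% for Cebpb, and larger than that of 67.0% for Spi1 and 68.8% for Cebpa. Low counts widen this spread. The same libraries differed in the sort markers and in Gata2: Itgam was at 53.5, 13.9, 16.1 and 35.5 CPM, Kit at 18.9, 50.2, 52.0 and 19.2 CPM, and Gata2, a factor of early progenitors and mast cells, at 24.4, 78.8, 66.6 and 33.4 CPM in replicates 1 to 4. The part of these differences in the spread of the 8 genes was not tested.

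**Figure D5:**
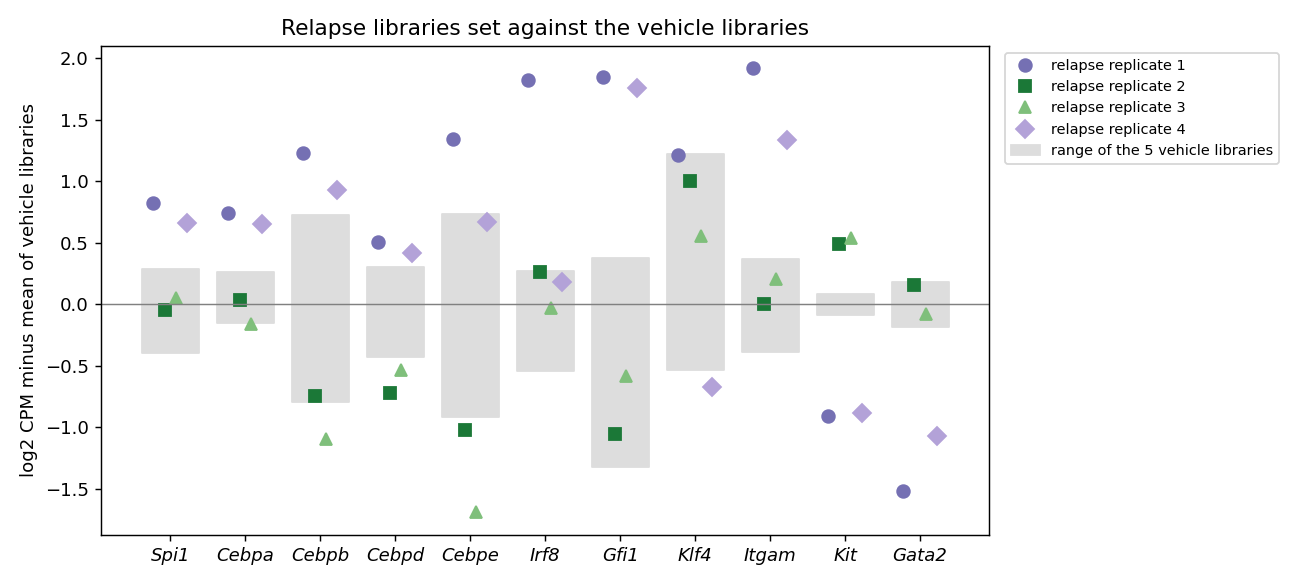
Log2 CPM of each relapse library minus the mean of the 5 vehicle libraries (vertical axis) for the 8 genes and for Itgam, Kit and Gata2, with the vehicle range as a grey band. Replicates 1 and 4 lie above the band for Spi1, Cebpa, Cebpb, Cebpd, Gfi1 and Itgam and below it for Kit and Gata2.

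Against the AG120 groups, relapse was higher for 5 of the 8 genes, where 54% of all genes passed and 27.9% were higher. These were Spi1, Cebpa and Irf8, whose relapse and AG120 libraries did not overlap, and Gfi1 and Cebpd, whose libraries did. Non-overlap was seen for 3 of the 8 and for 37.2% of all genes. Cebpa was 5.08-fold higher (log2 fold change 2.34 ± 0.21 SE, edgeR adjusted p = 2.99e-07). Gfi1 (2.39 ± 0.74, edgeR adjusted p = 0.0175) and Cebpd (0.83 ± 0.27, edgeR adjusted p = 0.016) were called less firmly: both calls were lost in limma-voom (adjusted p = 0.186 and 0.0519), without AG120 day 14 replicate 2 (edgeR adjusted p = 0.0717 and 0.0677) and without relapse replicate 4 (0.0550 and 0.0640), leaving 3 of the 8. Gfi1 was also lost without AG120 day 14 replicate 1 (0.0576) and when genes with low counts were kept (0.0662), and Cebpd without relapse replicate 1 (0.0520). Of the 16 alternatives run, Gfi1 passed in 10 and Cebpd in 11. Cebpe (1.55 ± 0.64, edgeR adjusted p = 0.0608), Cebpb (0.77 ± 0.46, edgeR adjusted p = 0.183) and Klf4 (-0.52 ± 0.66, edgeR adjusted p = 0.533) did not pass. Cebpe passed in DESeq2 (adjusted p = 0.00701) and without relapse replicate 2 (edgeR adjusted p = 0.0425) or 3 (0.00865), and Cebpb without relapse replicate 3 (0.0283). This comparison and the one with vehicle share the relapse libraries, and the AG120 groups are here set against relapse and above against vehicle. The AG120 groups too were taken at earlier times than relapse.

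Gene lists around the 8 factors are read against all genes tested, of which 20.1% were higher and 19.3% lower at day 5 and 16.8% higher and 17.9% lower at day 14, with median log2 fold changes of -0.00087 and -0.0062. Among 13 relatives, partners and cofactors of PU.1, 10 were tested. At day 5, 6 fell and 1 rose, with a list median of -0.65, and at day 14, 6 fell and 0 rose, with a median of -1.43. Etv6, an ETS-family repressor, fell by 1.87 at day 5 and by 2.61 at day 14 on the log2 scale (edgeR adjusted p = 2.33e-07 and 1.43e-07). Cbfb, the partner of RUNX1, fell by 1.11 and by 2.75 (edgeR adjusted p = 3.06e-06 and 1.61e-08), and Irf1 by 1.31 and by 2.21 (edgeR adjusted p = 0.000274 and 5.02e-05). Runx1, which acts upstream of Spi1, fell by 0.93 and by 1.80 (edgeR adjusted p = 0.00173 and 7.16e-05). Myb, a progenitor factor, rose at day 5 (log2 fold change 0.50 ± 0.12 SE, edgeR adjusted p = 0.00304).

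Of 10 C/EBP relatives and modulators, 8 were tested, and 2 rose and 0 fell at day 5 (median 0.50), while 3 rose and 1 fell at day 14 (median 0.32), where 20.1% and 16.8% of all genes rose. The day 5 count is near that background. The gene that fell at day 14 was Batf (log2 fold change -2.68 ± 0.69 SE, edgeR adjusted p = 0.00982). Trib2, whose product promotes breakdown of C/EBPα, rose 4.70-fold at day 5 and 4.00-fold at day 14 (edgeR adjusted p = 0.00223 and 0.0326), at 3.03 ± 0.857 CPM in AG120 day 5 against 0.620 ± 0.234 CPM in vehicle day 5 (SD, n = 3 each). Its vehicle counts were few, 16 in all at day 5 and 8 at day 14. Trib1 passed at neither time. Its log2 fold change was 0.89 ± 0.56 at day 5 and -0.91 ± 0.69 at day 14 (edgeR adjusted p = 0.224 and 0.321). Ddit3, a C/EBP relative that forms inactive pairs with the others, rose by 0.57 and 1.12 on the log2 scale (edgeR adjusted p = 0.0194 and 0.000948). Of 8 genes in a list of GFI1 partners that also holds its paralog Gfi1b, all tested, 4 rose at day 5 and 2 at day 14. None fell, and the medians were 0.23 and 0.27, where 20.1% and 16.8% of all genes rose. The day 14 count is near that background. Gfi1b is among the genes that rose at each time, and it is also in the list of erythroid factors below. Gfi1b, the erythroid and megakaryocyte paralog of Gfi1, rose 4.49-fold at day 5 and 3.83-fold at day 14 (edgeR adjusted p = 0.00035 and 0.00379), whereas Gfi1 itself did not pass.

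Of 10 erythroid and GATA factors, all tested, 5 rose and 3 fell at each time, with medians of 0.69 and 1.19, where 20.1% of all genes rose and 19.3% fell at day 5 and 16.8% rose and 17.9% fell at day 14. Klf1, the erythroid Krüppel-like factor, rose 18.0-fold and 19.3-fold (edgeR adjusted p = 6.56e-06 and 2.66e-05), and Gata2 fell by 1.23 and by 2.43 on the log2 scale (edgeR adjusted p = 0.0184 and 0.00256), as did Lyl1 and Nfe2 by 1.46 and 1.33 at day 5. The summed level of 10 erythroid markers, of which 4 rose at day 5 and 7 at day 14 and 0 fell, was 305 to 433 CPM after 5 days of AG120 and 1070 to 1332 CPM after 14 days, 36.5 to 385 CPM in relapse and 32.3 to 111 CPM over the vehicle libraries. None of the 10 was at 0 in any group. The erythroid markers moved with the fall of Spi1 and Cebpa, and their part in it was not tested.

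Receptor, granule and oxidase genes of myeloid cells were read from lists of their own. These lists hold markers and are not sets of targets, and the activity of the factors was not tested. Of 10 myeloid growth factor receptors 9 were tested, and 4 fell and 1 rose at each time, with medians of -0.96 and -3.00, where 19.3% of all genes fell at day 5 and 17.9% at day 14. Csf3r, the G-CSF receptor and a target of C/EBPα and PU.1, fell by 2.98 and by 3.31 on the log2 scale (edgeR adjusted p = 6.07e-08 and 6.63e-07), at 2.90, 2.18 and 1.92 CPM in AG120 day 5 against 19.9, 16.5 and 19.4 CPM in vehicle day 5. Csf1r, the M-CSF receptor and a target of PU.1, had 10.2 ± 1.36 CPM in AG120 day 5 against 10.7 ± 0.765 CPM in vehicle day 5 (SD, n = 3 each), with a log2 fold change of -0.064 (95% interval -0.61 to 0.48, edgeR adjusted p = 0.869), and -0.011 at day 14 (-0.70 to 0.68, edgeR adjusted p = 0.986). Of 10 primary granule genes, all tested, 5 fell at each time, and 1 rose at day 5 and 0 at day 14 (medians -1.93 and -2.64). Serpinb1a fell by 2.64 and by 3.07 on the log2 scale and Ms4a3 by 2.47 and by 4.08. Of 16 secondary granule and oxidase genes 15 were tested, and 6 fell at day 5 and 3 at day 14, with 0 higher, while the list median was -2.02 at day 5 and 0.29 at day 14, and the day 14 count is near the 17.9% of all genes that fell. Ncf1, a subunit of the phagocyte oxidase, fell by 2.32 and by 1.77 on the log2 scale (edgeR adjusted p = 0.000144 and 0.00606). The summed level of this list was 189 to 275 CPM in AG120 day 5 against 687 to 914 CPM in vehicle day 5. At day 14 AG120 stood above vehicle, with 1360 to 1764 CPM against 1113 to 1319 CPM. In relapse against vehicle, 0 members of any of the 16 lists passed.

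Other cells that the gate could hold were read from further markers. B cell markers summed to 0.298 to 2.29 CPM over the AG120 libraries, 1.68 to 3.78 CPM in relapse and 2.93 to 4.29 CPM over the vehicle libraries, and Igll1 was at 0 in all libraries. T and NK cell markers summed to at most 5.88 CPM and stromal and endothelial markers to at most 6.77 CPM in any library. Mast cell and basophil markers summed to 26.4 to 31.8 CPM after 5 days of AG120 and 8.06 to 8.21 CPM after 14 days, 26.8 to 61.7 CPM in relapse and 59.7 to 73.8 CPM over the vehicle libraries, with Cma1 at 0 in all. Megakaryocyte markers summed to 33.4 to 54.7 CPM after 5 days of AG120 and 71.0 to 79.1 CPM after 14 days, 78.4 to 276 CPM in relapse and 223 to 312 CPM over the vehicle libraries. These sums moved with AG120 in the same libraries as Spi1 and Cebpa, and their part in the levels of the 8 genes was not tested.

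The genes most like each factor across the 14 libraries were found by the root mean square difference of centred log2 CPM among 6251 named genes of moderate or high level. Spi1 was nearest to Serpinb1a (0.199), Ralgds (0.237) and Pkm (0.239), and Ltbr (0.242) and Lcp1 (0.263) were among the 3 nearest to Cebpa. Cebpd was nearest to Hspa13 (0.222), Cebpb to Gsr (0.282), Gfi1 to C3 (0.368), Irf8 to Lyz2 (0.434), Cebpe to Sorl1 (0.449) and Klf4 to Nr3c1 (0.677). Serpinb1a and Lyz2 are also in the primary granule list. Among the 8 factors themselves the nearest pairs were Cebpb and Cebpd (0.466), Spi1 and Cebpa (0.544) and Cebpe and Gfi1 (0.561), and the farthest was Irf8 and Klf4 (2.22). These distances are descriptions over libraries that share depth and group, and low counts enlarge them.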

How the data were processed

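Libraries for 3′ RNA sequencing of sorted progenitors from 14 mice were made with QuantSeq, per the labels' protocols. The values are raw gene counts that the authors deposited in 1 table, whose 14 columns were matched to libraries by name. Per the submitters' processing notes, the build was mm10 and the tools included HISAT2 2.1.0 and Subread 1.6.3. How strand, multi-mapped reads and molecular identifiers were handled is not given in the sources used here. Gene symbols and positions came from GENCODE M21 (GRCm38), which named 52489 of the 52636 identifiers.

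From the counts, genes kept by filterByExpr (minimum count 10) received TMM factors and a robust quasi-likelihood fit in edgeR 4.0.16 (R 4.3.3) over all 14 libraries, 1 coefficient per group and no covariate, since the labels name no batch. Groups thus shared 1 estimate of the spread (common dispersion 0.0291, 9 residual degrees of freedom). Tests were two-sided, and p-values were adjusted by the Benjamini-Hochberg method across the 11994 tested genes (threshold 0.05). For log2 CPM a prior count of 2 was added. Intervals cover 95%. Replicates differed by more than sampling noise and each was counted as 1 sample.

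On simulated counts for day 5, with 11676 genes, 51.0% of genes changed by a log2 of 1 and 82.8% of those changed by 2 were recovered. For day 14 (11621 genes) it was 32.7% and 69.4%, and for relapse against vehicle (11626 genes) 61.2% and 91.8%. In each comparison 100 genes were changed by each size, and 8, 1 and 5 calls were false, in the same order. The real relapse libraries differed more among themselves than those of the other groups. The relapse shares may thus be too high for the real data and are not read as its power.

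The 8 genes, the 16 gene lists and the tests were chosen with earlier results of these data known. Named genes were the 8 in every comparison, up to 3 passing genes per list and direction, the 3 most alike per factor (mean log2 CPM of at least 3, no unnamed models), and Gata1, Gata2, Klf1, Csf1r, Csf3r, Trib1, Trib2, Ddit3, Cebpg, Gfi1b, Runx1, Kit and Itgam; a few genes that this rule names are not reported here. Alternatives were DESeq2 1.42.0, limma-voom (limma 3.58.1), no filter on low counts, ribosomal RNA models removed, libraries thinned to 1259982 other counts, only the groups compared, a replicate block and leaving out each library.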

Additional observations from a re-analysis of the deposited data

Results flagged for a closer look

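Irf8 in relapse replicate 1 stood apart from the other relapse libraries. It was at 30.6 CPM there, against 8.25 to 10.2 CPM in the other 3, a gap of 0.915 of the whole range, where Dixon's 95% value for 4 samples is 0.829. Chance gives such a gap in about 1 in 20 groups, and 13 groups were examined. Without this library the log2 fold change of Irf8 was 0.093 for relapse against vehicle and 2.47 for relapse against AG120, the second of which still passed. The same library had the highest Itgam level of all 14 libraries, 53.5 CPM, and 0 Gata1 counts.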

How the results depend on the processing

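The falls of Spi1 and Cebpa at both times, of Irf8 at day 5, and the higher Spi1, Cebpa and Irf8 in relapse than in AG120 passed under every alternative run, with log2 fold changes of -2.40 to -2.07 (Spi1) and -1.34 to -1.11 (Cebpa) at day 5 and -3.53 to -3.14 (Spi1) and -3.34 to -2.37 (Cebpa) at day 14. Leaving out 1 library, the number of the 8 called was 3 to 5 at day 5, 3 to 7 for relapse against AG120, and 0 in the difference between days, relapse against vehicle and vehicle day 14 against day 5. Over all genes the number was 2752 to 3003 at day 14, 13 to 61 in the difference and 8 to 117 for relapse against vehicle (8 without either vehicle day 14 library, 117 without relapse replicate 2). At day 14, 7 of the 8 passed with only the groups compared, a count given without its background over all genes. In the difference between days, where 112 genes passed, it was 187 genes and 2 of the 8 in DESeq2, 374 and 1 without a filter, 30 in limma-voom, 869 and 4 with only the groups compared, 70 in thinned libraries, and 492 and 1 in AG120 day 14 against day 5, an alternative chosen after seeing the data. The share of higher calls there was 22.3% in the fit reported, 31.6% in DESeq2, 33.3% in limma-voom, 41.0% with only the groups compared and 42.7% in AG120 day 14 against day 5. For relapse against vehicle 120 genes passed in DESeq2, 267 without a filter and 7 with only the groups compared, beside 22. For relapse against AG120, 3 of the 8 passed in limma-voom and 3 with the replicate block, both without Gfi1 and Cebpd (adjusted p = 0.0848 and 0.0883 with the block by edgeR). Between the vehicle times 33 genes passed without a filter, and 236 genes and 1 of the 8 with only the groups compared. The cause was not tested. Same-numbered AG120 and vehicle samples deviated together with correlations of 0.107, 0.0491 and 0.0171 at day 5 and 0.0685 at day 14. With 2 samples a group both day 14 pairs give the same value by construction, and differently numbered pairs were not examined. These values thus cannot decide whether same-numbered samples share more than a number. The replicate block gave 4677 genes at day 5, 4129 at day 14, 108 in the difference, 16 for relapse against vehicle and 6167 for relapse against AG120.

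Signs turned only for values that passed nowhere in that comparison. In relapse against vehicle Cebpb was -0.039 and Cebpe -0.24 in limma-voom, and Cebpe -0.010 with the replicate block. In relapse against AG120 Klf4 was 0.054 with the block, and in the difference between days Cebpe was 0.049 in thinned libraries. Leaving out 1 library gave Cebpb -0.22 to 0.30 at day 5, Cebpd -0.021 to 0.41 and Cebpe -0.44 to 0.24 in the difference between days, and Cebpb -0.099 to 0.59, Cebpd -0.21 to 0.17 and Cebpe -0.37 to 0.57 in relapse against vehicle. Between the vehicle times it gave Cebpa -0.12 to 0.10, Cebpd -0.088 to 0.34, Irf8 -0.012 to 0.32, Gfi1 -0.036 to 0.58 and Klf4 -1.37 to 0.14. Klf4 was not tested in thinned libraries, nor at day 14 or between the vehicle times with only the groups compared. Of 680 values for single genes, 621 kept their direction and side of the threshold. For Klf4, Gfi1, Cebpe and Cebpb the SE of the AG120 effects was 0.55 to 1.27 on the log2 scale in the fit of all libraries. With only the groups compared at day 14 it was 0.25 for Cebpb, 0.37 for Cebpe and 0.47 for Gfi1.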

Other observations

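Lists of the monocyte and dendritic cell branch had members called in both directions. Zbtb46, a factor of classical dendritic cells that is also made in erythroid progenitors of the mouse, rose 15.8-fold at day 5 and 18.6-fold at day 14 (edgeR adjusted p = 3.18e-07 and 1.28e-06). Cx3cr1, the fractalkine receptor of monocytes, rose 5.48-fold at day 5 (edgeR adjusted p = 0.00431). Irf5 rose at both times, by 0.33 and 0.61 on the log2 scale, while Klf6 fell by 0.87 and by 1.34. Of the 14 monocyte and dendritic cell factors 12 were tested, and 2 rose and 1 fell at each time. Of the 13 monocyte and macrophage genes 8 were tested, and 3 fell and 1 rose at day 5, and 3 fell and 0 rose at day 14. Cd68, a lysosomal protein of macrophages, fell by 3.11 and by 3.00 on the log2 scale. Of the 11 dendritic cell and MHC class II genes 7 were tested, and 1 rose and 1 fell at day 5, and 1 rose and 0 fell at day 14. Over all genes tested, 20.1% rose and 19.3% fell at day 5 and 16.8% rose and 17.9% fell at day 14, so the shares of these lists that rose were near or below the background. The 3 of 8 monocyte and macrophage genes that fell at each time were above it, with list medians of -1.91 and -1.39. Medians were -0.12 and -0.046 for the monocyte and dendritic cell factors. For the dendritic cell and MHC class II genes they were -1.34 and 1.05.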
